A study of Homo sapiens with 12 samples.

Results

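RNA sequencing of senescent MRC5 fibroblasts that had been kept in the citrate carrier inhibitor CTPI2, Sen(IR)+CTPI2, was set against that of proliferating MRC5 fibroblasts, Prol. The 6 libraries were chosen by their labels, 3 Sen(IR)+CTPI2 and 3 Prol, out of the 12 libraries of the study, and every gene of the count table was considered. Untreated senescent cells, Sen(IR), took no part in this comparison, which shows how senescent cells kept in CTPI2 differed from proliferating cells. MRC5 is a line of human embryonic lung fibroblasts with a limited replicative life span, so all libraries come from 1 line grown in culture. Per the methods, senescence was induced with 20 Gy of X-rays, CTPI2 was added the day after irradiation and stayed in the medium for 12 days. The methods give doses of 15 and 30 µM, and the labels do not say which of them was sequenced. No library came from proliferating cells given CTPI2, and the solvent given to the Prol cells is not stated, so irradiation, time in culture, senescence and CTPI2 cannot be told apart in this contrast. The labels do not say whether replicates were separate cultures, while a heatmap legend of the study calls its CTPI2 replicates independent experiments. The p-values measure the spread between these libraries.

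Cellular senescence is a lasting exit from the cell cycle that follows DNA damage, telomere erosion or oncogene activity. The arrest is set by p53, its target the cyclin-dependent kinase inhibitor p21 (CDKN1A) and the kinase inhibitor p16 (CDKN2A), which keep RB family proteins active so that E2F and the DREAM complex hold DNA replication and mitosis genes down. Senescent fibroblasts lose lamin B1, enlarge their lysosomes and secrete cytokines, chemokines, proteases and growth factors, collectively the senescence-associated secretory phenotype (SASP), much of it driven by NF-kB. SLC25A1, the mitochondrial citrate carrier that CTPI2 inhibits, exports citrate to the cytosol, where ATP-citrate lyase (ACLY) splits it to acetyl-CoA, the donor for histone acetylation and for lipid synthesis.

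The libraries were of like depth, with 24289488 to 28245693 counts in Prol and 22625528 to 24246769 in Sen(IR)+CTPI2. A library's floor of 3 counts lay between 0.109 and 0.130 CPM (counts scaled to library size), and values near it carry large counting error. Genes of the mitochondrial genome held 2.36 to 2.68% of the counts in Prol and 2.39 to 3.28% in Sen(IR)+CTPI2. All 10 fibroblast markers passed the filter, with summed levels of 20851 to 24807 CPM in Prol and 18033 to 19804 CPM in Sen(IR)+CTPI2. The epithelial (6), leukocyte (6) and mesothelial (3) marker lists summed to at most 12.6, 6.81 and 0.128 CPM in any library. Summed levels of the 5 endothelial markers, nearly all from TEK, were 150.2 to 195.3 CPM in Prol and 295.0 to 325.1 CPM in Sen(IR)+CTPI2, while PECAM1 and CDH5 stayed at or below 0.347 CPM. The leukocyte sum moved from 0.880 to 1.33 CPM up to 5.09 to 6.81 CPM through CD14 and CD68, with PTPRC at or below 0.0433 CPM. Markers of lung position were present, TBX5 at 43.4 to 52.7 CPM and FOXF1 at 250.5 to 307.9 CPM over the 6 libraries. Whether reads were counted by strand is not given in the sources used here, so genes that overlap others cannot be fully separated, and an overlap of exonic bases is given beside a gene where it bears on a value. In bulk RNA, fewer cells of a kind and less RNA per cell cannot be told apart.

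A large share of the measured transcriptome differed between the groups. Of 15284 genes tested with edgeR's quasi-likelihood test, 7199 (47.1%) were called, which required a log2 fold change beyond 0.5 in either direction and a p below 0.05 after Benjamini-Hochberg adjustment, 3755 of them (24.6%) higher and 3444 (22.5%) lower in Sen(IR)+CTPI2. The changes were large, with 272 called genes higher and 196 lower by more than 3 on the log2 scale. The median log2 fold change over all genes tested was -4.67e-04. Prol and Sen(IR)+CTPI2 libraries had separate ranges for 11012 genes (72.0%). With so broad a response, a share of called genes in any gene list below has to be read against 24.6% higher and 22.5% lower.

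Among called genes with a mean over 1 log2 CPM, counts in both groups and no overlap between libraries, those with the largest falls encoded elastin and the machinery of division. ELN, which encodes the elastin of elastic fibers, stood at 44.8, 30.8 and 41.2 CPM in the Prol libraries and at 0.520, 0.245 and 0.427 CPM in the Sen(IR)+CTPI2 libraries. Its log2 fold change of -6.61 (SE 0.213, edgeR adjusted p 8.47e-14) was the largest fall by these criteria. MYBL2, the MYB subunit that activates mitotic genes, measured 76.0, 70.0 and 80.5 CPM in Prol and 2.56, 1.75 and 2.74 CPM in Sen(IR)+CTPI2, a log2 fold change of -5.01 (SE 0.121). KIF18B (-5.23, a mitotic kinesin), NCAPH (-4.91, a condensin subunit), AURKB (-4.82, the kinase of the chromosomal passenger complex), E2F8 (-4.76), MCM10 (-4.74, a replication initiation factor), TROAP (-4.74) and the noncoding LINC00707 (-5.48) completed the largest falls on the log2 fold change scale. HBE1, embryonic globin, also fell (-4.90), but 90% of its exonic bases overlap other genes, so its reads may belong to them.

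By the same criteria the largest rises were in secreted immune mediators. Among the 10 largest were CXCL1 (log2 fold change 8.79), CXCL10 (8.35), CXCL6 (7.11), CXCL5 (6.89), CXCL3 (6.39) and CXCL8 (6.08), all chemokines. C3, the central complement protein, was also among them (7.69). Its levels were 1.5, 1.17 and 1.81 CPM in Prol against 301.9, 319.5 and 315.9 CPM in Sen(IR)+CTPI2, so the groups lay far apart and the replicates close together. OAS2 (6.26, an interferon-induced antiviral synthetase), TNFSF18 (6.10, the ligand of GITR) and CNTN4 (5.92, a neuronal adhesion molecule) were the other genes of that group.

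**Figure D1:**
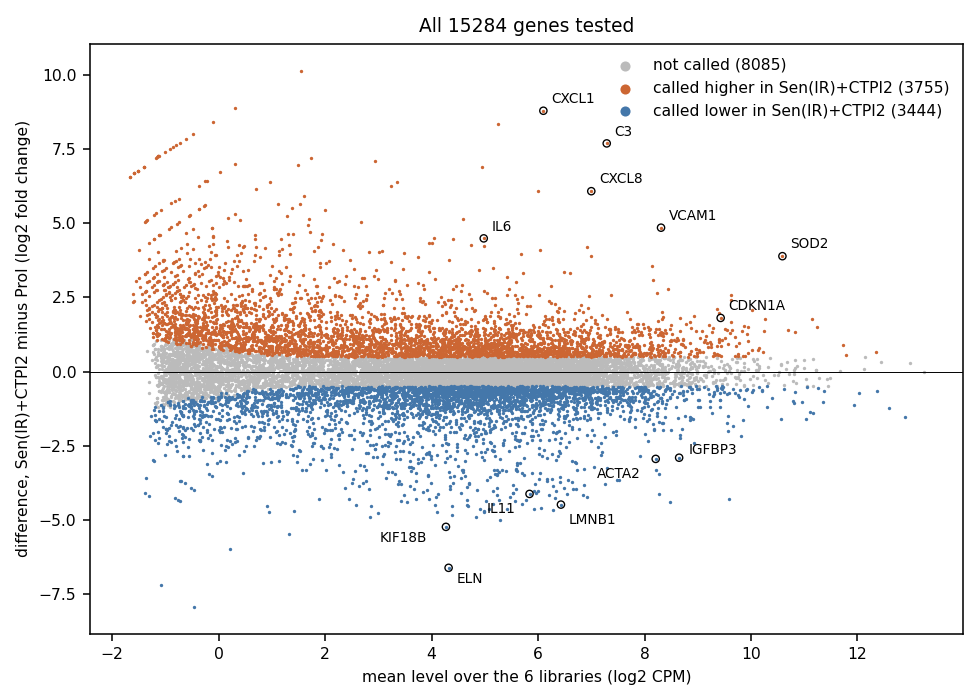
Each point is 1 of the 15284 genes tested, with the mean level over the 6 libraries on the horizontal axis (log2 CPM) and the log2 fold change of Sen(IR)+CTPI2 over Prol on the vertical axis; 3755 genes called higher and 3444 called lower are coloured. Called genes lie on both sides at every level, labelled genes such as CXCL1 (8.79) and ELN (-6.61) stand far from 0, and genes at low levels, which rest on few counts, fan out.

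To describe the response by function, 45 gene lists were counted, holding 1011 genes that passed the filter on low counts. Lists of replication, recombination, mitosis, ribosome biogenesis and contraction leaned low. Lists of chemokines, interferon-stimulated genes, p53 targets, lysosomal proteins and replication-dependent histones leaned high. Lists of oxidative phosphorylation, glycolysis, sterol synthesis and the citrate route held few called genes or called genes on both sides.

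**Figure D2:**
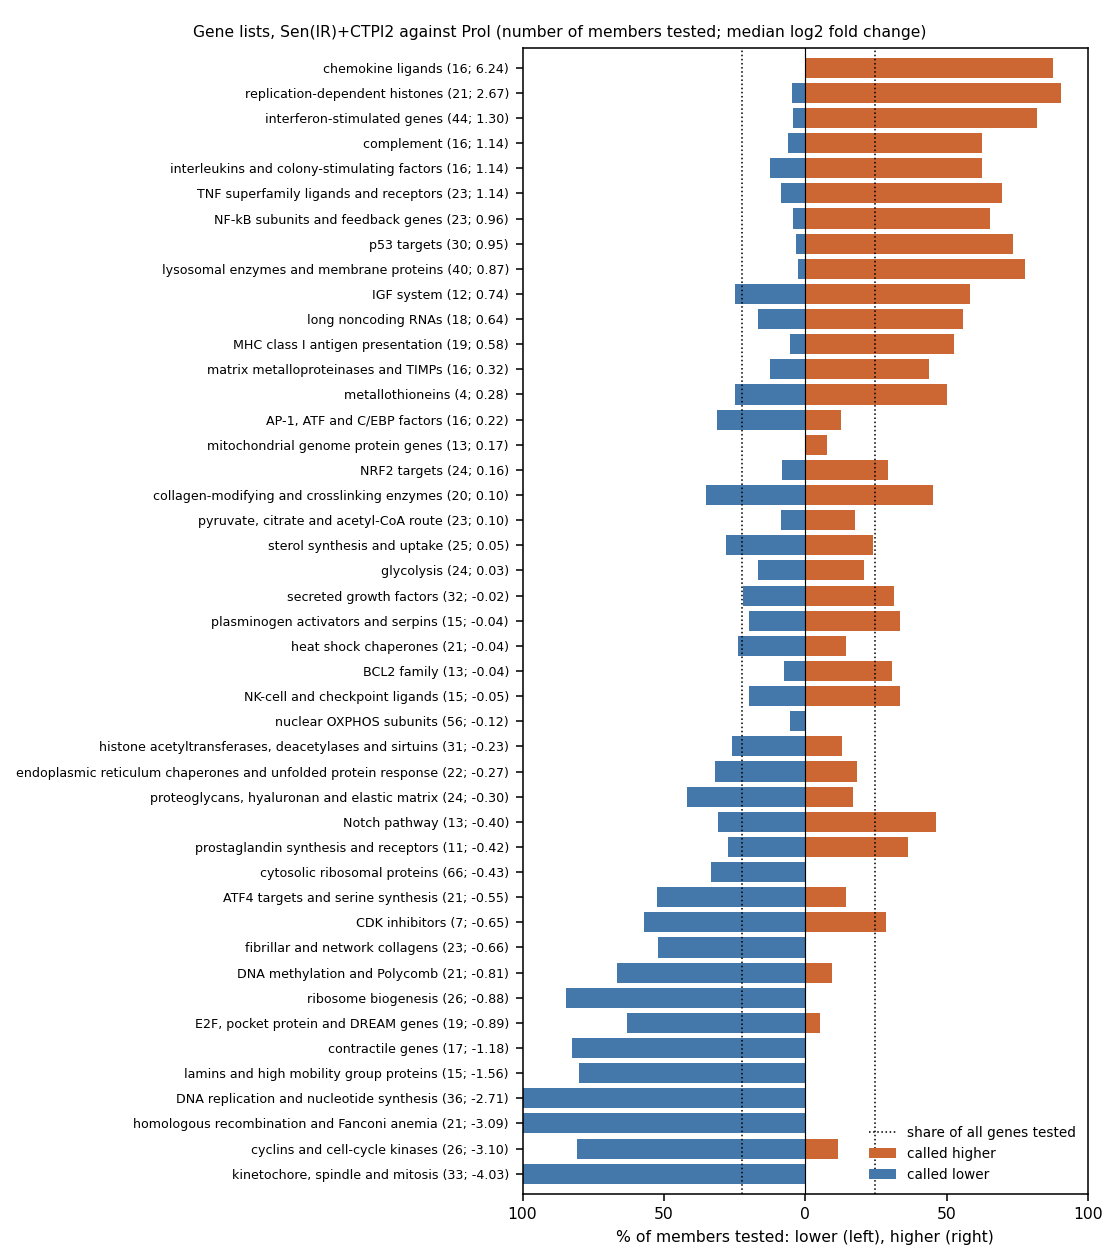
Bars give, for each of the 45 gene lists, the percentage of tested members called lower (left) and higher (right) in Sen(IR)+CTPI2 against Prol, with the number tested and the median log2 fold change beside the name. Dotted lines mark the shares over all tested genes, 22.5% lower and 24.6% higher, which the kinetochore list (all 33 members lower) and the interferon-stimulated genes (81.8% higher) exceed and the 56 nuclear OXPHOS subunits (5.36% lower, none higher) do not reach.

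The cyclin-dependent kinase inhibitors did not move as a group. Of 7 members, 2 were higher and 4 lower. CDKN1A, encoding p21, measured 281.6, 329.4 and 310.5 CPM in Prol and 1101, 1081 and 1043 CPM in Sen(IR)+CTPI2, a rise to 3.50 times the Prol mean (log2 fold change 1.81, SE 0.0674, edgeR adjusted p 5.13e-13). The p15 gene, CDKN2B, rose as well, from 13.4, 15.6 and 14.6 CPM to 33.1, 30.9 and 39.4 CPM (1.25, SE 0.101). Neither gene's libraries overlapped between groups.

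CDKN2A went the other way. It stood at 7.12, 6.75 and 8.14 CPM in Prol and at 3.34, 5.01 and 3.46 CPM in Sen(IR)+CTPI2, a log2 fold change of -0.90 (SE 0.168, adjusted p 1.63e-04). The gene yields both p16 and ARF from different first exons, which a gene-level count merges, and 15% of its exonic bases overlap CDKN2B-AS1. CDKN2C, encoding p18, fell further, from 39.6, 36.6 and 42.3 CPM to 1.82, 1.55 and 1.75 CPM (-4.53, SE 0.120). The remaining members called lower were CDKN1B (-0.82) and CDKN2D (-0.65), named here to complete the count.

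Most p53 targets were higher: 22 of 30 (73.3%) were called higher and 1 lower, with a median log2 fold change of 0.95. The largest rises belonged to TP53INP1 (2.37), a p53-induced nuclear protein, CYFIP2 (2.29), the antiproliferative BTG2 (2.00) and RRM2B (1.85), the p53-inducible ribonucleotide reductase subunit. RRM2B read 56.7, 56.8 and 52.6 CPM in Prol and 194.9, 189.0 and 212.6 CPM in Sen(IR)+CTPI2. The stress cytokine GDF15 rose from 20.9, 21 and 21.9 CPM to 59.9, 57.3 and 53.3 CPM (1.42, SE 0.0753). AEN, a p53-induced nuclease, was the member called lower, at 80.6, 66.6 and 79.7 CPM against 40.7, 40.4 and 40.3 CPM (-0.90).

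The cell division program was low throughout. All 36 replication and nucleotide synthesis genes, all 33 kinetochore, spindle and mitosis genes and all 21 homologous recombination and Fanconi anemia genes were called lower, where 22.5% of all tested genes were. Their median log2 fold changes were -2.71, -4.03 and -3.09, against -4.67e-04 over all tested genes. The proliferation antigen MKI67 measured 264.9, 219.0 and 204.1 CPM in Prol and 12.3, 11 and 13.6 CPM in Sen(IR)+CTPI2 (-4.22, SE 0.106, edgeR adjusted p 4.41e-15), and CCNA2, the cyclin of S phase and G2, measured 198.3, 178.7 and 210.1 CPM and 12.2, 11.3 and 14.3 CPM (-3.96, SE 0.0926). Each was thus many times lower in every Sen(IR)+CTPI2 library than in any Prol library, yet well above the floor of 3 counts.

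Among 26 cyclins and cell-cycle kinases 21 were lower and 3 higher (median -3.10). PLK4 (-4.62, centriole duplication), PLK1 (-4.62, mitotic entry) and NEK2 (-4.48, centrosome separation) followed AURKB among the largest falls. The 3 higher members were the D-type cyclins, which pair with CDK4 and CDK6 in G1. CCND1 rose from 1136, 856.9 and 1048 CPM to 3366, 3250 and 3904 CPM (1.79, SE 0.0944). CCND2 rose from 13.4, 16.6 and 17.8 CPM to 256.7, 235.1 and 228.3 CPM (3.91, SE 0.0934), and CCND3, named to complete the count, had a log2 fold change of 0.77. The D-type cyclins thus moved against the other cyclins that were called.

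Licensing and initiation factors fell with the replication genes. ORC1 (-3.76), which marks origins, CDC45 (-3.75), part of the replicative helicase, and CDC6 (-3.62), which loads the helicase, had the largest falls after MCM10. CDC6 measured 122.0, 110.4 and 126.1 CPM in Prol and 9.66, 9.50 and 9.96 CPM in Sen(IR)+CTPI2. Of the mitotic genes, CDC20, the activator of the anaphase-promoting complex, went from 147.1, 134.5 and 166.0 CPM to 6.41, 5.79 and 5.60 CPM (-4.65, SE 0.0985), with similar falls for the kinetochore protein NUF2 (-4.69) and the spindle pole protein ASPM (-4.60). Within each group the replicates of CDC6 and CDC20 were close, and the groups were far apart.

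In the list of E2F, pocket protein and DREAM genes 12 of 19 were lower and 1 higher (median -0.89). E2F2 (-4.49) and the transcription factor FOXM1 (-3.71) fell with MYBL2 and E2F8. The higher member, TFDP2, an E2F partner, was close to the limit at 0.54 and had 27.7, 28 and 24.9 CPM in Prol against 37.4, 41.5 and 38.3 CPM. Without Prol replicate 3 or Sen(IR)+CTPI2 replicate 2 it was not called (0.49 and 0.48). Recombination genes with the largest falls were RAD54L (-4.36), the helicase BLM (-4.30), FANCD2 (-3.90) and the exonuclease EXO1 (-3.74). BLM, for example, read 28.5, 19.6 and 25.6 CPM in Prol and 1.17, 1.59 and 0.940 CPM in Sen(IR)+CTPI2.

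Cell-cycle genes are known to be controlled through short promoter motifs, and 3 promoters are printed to show where these lie. The windows run from 250 bases before to 50 bases after a RefSeq start site on GRCh38.p14, positions being counted so that the start is 1 and the base before it -1. Capitals mark the cell cycle genes homology region (CHR, TTTGAA), the CCAAT box (CCAAT) and the E2F site (TTTCGCGC or TTTGGCGC), searched on both strands. CDC25C, the phosphatase that activates CDK1, was taken by rule as the first of CCNA2, CCNB1 and CDC25C whose window holds a CHR. It lies at chr5:138331828-138332127 on the minus strand, the second of 4 windows of that gene. Shares of promoters given below use the first window listed for each gene, and the first window of CDC25C holds neither a CHR nor a CCAAT box, so it counts there as lacking both. CDC20, at chr1:43358731-43359030, and CDC6, at chr17:40287629-40287928, both on the plus strand, were added after the values were seen.
CDC25C: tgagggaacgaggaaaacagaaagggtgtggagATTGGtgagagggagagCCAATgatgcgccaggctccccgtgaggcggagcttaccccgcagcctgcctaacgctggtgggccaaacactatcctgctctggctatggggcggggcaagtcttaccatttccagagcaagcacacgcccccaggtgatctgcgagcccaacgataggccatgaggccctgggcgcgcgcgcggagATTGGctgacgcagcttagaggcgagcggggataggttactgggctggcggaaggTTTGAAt
CDC20: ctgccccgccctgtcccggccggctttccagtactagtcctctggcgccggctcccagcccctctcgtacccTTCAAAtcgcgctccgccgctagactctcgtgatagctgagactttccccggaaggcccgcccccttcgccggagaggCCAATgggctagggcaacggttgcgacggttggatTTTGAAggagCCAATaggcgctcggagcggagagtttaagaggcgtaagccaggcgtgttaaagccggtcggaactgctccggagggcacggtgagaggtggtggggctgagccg
CDC6: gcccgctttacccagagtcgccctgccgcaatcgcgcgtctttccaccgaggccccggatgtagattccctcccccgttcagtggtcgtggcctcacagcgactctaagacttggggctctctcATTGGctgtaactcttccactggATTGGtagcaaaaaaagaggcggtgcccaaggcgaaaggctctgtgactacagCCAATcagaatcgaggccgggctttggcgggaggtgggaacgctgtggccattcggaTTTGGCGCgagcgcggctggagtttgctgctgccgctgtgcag

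The CHR of CDC25C begins at position 44, after 3 CCAAT boxes, and its level went from 19.9, 17.5 and 19.3 CPM in Prol to 1.47, 1.35 and 1.62 CPM in Sen(IR)+CTPI2 (log2 fold change -3.67, SE 0.139). CDC20 holds a CHR at -65 and another, on the opposite strand, at -178, with CCAAT boxes at -100 and -55. CDC6 holds no CHR and has an E2F site at position 8.

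Across lists, the mitotic and replication promoters differed in which motif they held. TTTGAA occurred in 22 of 30 kinetochore, spindle and mitosis promoters (73.3%), in 1 of 32 replication promoters (3.12%), in 9.98% of the 11203 tested genes with a window and in 15.4% of all 27305 windows. The E2F letters occurred in 10 of 32 replication promoters (31.2%), in 3 of 30 mitotic ones, in 2.00% of tested genes and in 1.18% of all windows. CCAAT, being short, was common everywhere, at 76.7% of the mitotic promoters and 36.4% of those of tested genes. Without regard to lists, TTTGAA was held by 28.3% of 357 promoters of genes lower by more than 2 on the log2 scale, by 13.1% of all genes called lower, by 12.6% of 436 promoters of genes higher by more than 2 and by 9.14% of all genes called higher. These are matches of letters, not binding sites, and no test was run on them.

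**Figure D3:**
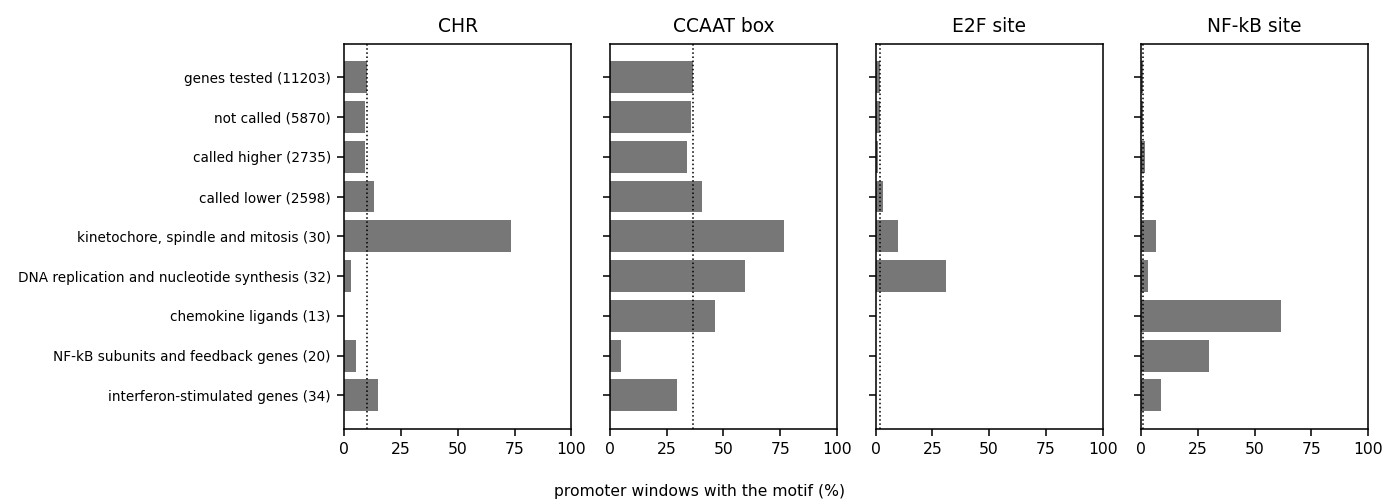
Bars give the percentage of promoter windows of 300 bases that hold each motif, by gene list or by call, beside the percentage over 11203 tested genes. The CHR stands out in kinetochore, spindle and mitosis genes (73.3%), the E2F site in replication genes (31.2%) and the NF-kB site in chemokine ligands (61.5%), several of which are neighbouring genes. All are matches to exact letters, and no test was run on them.

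Lamin, high mobility group and Polycomb genes leaned low, unlike other chromatin genes described below. LMNB1, encoding lamin B1, measured 160.0, 156.7 and 177.3 CPM in Prol and 7.67, 7.91 and 6.5 CPM in Sen(IR)+CTPI2, a mean 22.4-fold lower than in Prol (log2 fold change -4.48, SE 0.0898, edgeR adjusted p 7.50e-16). The chromatin protein and alarmin HMGB1 went from 640.7, 637.0 and 696.4 CPM to 173.0, 170.2 and 172.5 CPM (-1.94, SE 0.0617), and HMGB2 from 211.5, 198.0 and 223.3 CPM to 22.3, 20.8 and 21.5 CPM (-3.29, SE 0.0727). In all, 12 of 15 lamin and high mobility group genes were lower and none higher, including TMPO (-3.25) and HMGN2 (-2.15). HMGA2, an architectural factor of growing fibroblasts, did not pass, with 162.7, 101.3 and 148.7 CPM against 130.6, 112.6 and 130.1 CPM (adjusted p 0.302).

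Of 21 DNA methylation and Polycomb genes, 14 were lower and 2 higher. EZH2, the methyltransferase of Polycomb repressive complex 2, went from 69.9, 58.9 and 67.3 CPM to 7.10, 6.97 and 5.69 CPM (-3.31), whereas its paralog EZH1 went from 17.1, 18.9 and 17.5 CPM to 32.4, 35.9 and 32.6 CPM (0.92). The maintenance methyltransferase DNMT1 (-2.14), the dioxygenase TET1 (-3.12) and CBX2 (-2.67) were lower, and CBX7 (0.75) was the other member called higher. Within PRC2 and among the CBX readers, members of the same family thus moved in opposite directions. The list of acetyltransferases, deacetylases and sirtuins was mixed, with 4 of 31 higher, led by HDAC9 (2.62) and HDAC11 (1.55), and 8 lower, led by HAT1 (-1.25) and HDAC4 (-1.20).

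Replication-dependent histone genes were higher although replication genes were lower. These intronless genes are normally transcribed in S phase, and their mRNAs end in a stem-loop in place of a poly(A) tail. Of 46 members 21 passed the filter, 19 of them called higher and 1 lower. Of the 19, 3 passed through the Sen(IR)+CTPI2 libraries alone and so had to be higher, and the 25 members removed by the filter have no call. Among those removed, H2AC14, H3C11, H1-1 and H2BC14 had counts in Prol, at means of at most 0.372 CPM, and none in Sen(IR)+CTPI2. No removed member with more than 3 counts in a library showed the reverse. H4C8 measured 2.79, 3.94 and 2.93 CPM in Prol and 60.4, 61.6 and 58.7 CPM in Sen(IR)+CTPI2 (4.23, SE 0.110), and H2BC8 measured 0.874, 1.13 and 0.869 CPM and 14, 15.6 and 18 CPM (4.05, SE 0.171). H2BC4 (4.47) and H2BC18 (3.94) also rose, the former with 31% of its exonic bases shared with other genes. H2AC20 was the member called lower (-1.41), with 0.499, 0.587 and 1.16 CPM against 0.130, 0.204 and 0.513 CPM, so its groups overlapped, and the call was lost without Prol replicate 3, Sen(IR)+CTPI2 replicate 1 or Sen(IR)+CTPI2 replicate 2. Whether the libraries were made by poly(A) selection is not given in the sources used here, and near-identical copies share reads that unique counting drops.

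The secretory program is where the largest rises were found. Among 23 chemokine ligands 16 passed the filter and 14 of these were called higher, none lower. Of the 14, 9 passed through the Sen(IR)+CTPI2 libraries alone, among them CCL20 and CCL7 with no count in any Prol library, so that they had to differ, and the count of those that passed is no support in itself. The median log2 fold change of the 16 was 6.24, or 5.34 with CCL20 and CCL7 set to their bounds. CCL20, a lymphocyte attractant, reached 2.17, 2.04 and 2.95 CPM and was at least 19-fold higher than 3 counts in a Prol library, and CCL7 was at least 8.07-fold higher. The filter removed 7 ligands with too few counts in both groups.

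CXCL1, which draws neutrophils through CXCR2, measured 0.0416, 0.461 and 0.398 CPM in Prol and 139.4, 121.3 and 149.7 CPM in Sen(IR)+CTPI2 (8.79, SE 0.193, edgeR adjusted p 1.38e-15). CXCL8, encoding IL-8, measured 4.62, 2.1 and 4.34 CPM and 254.8, 192.4 and 308.9 CPM (6.08, SE 0.202). CXCL10, the interferon-induced ligand of CXCR3, measured 0.416, 0.210 and 0.0724 CPM and 81.3, 63.7 and 81.2 CPM (8.35, SE 0.208). For each of them the lowest Sen(IR)+CTPI2 library lay far above the highest Prol library, and the Prol levels of CXCL1 and CXCL10 rest on few counts. CCL2, the monocyte attractant, had a clear Prol level of 14.5, 17.3 and 15.8 CPM and rose to 162.4, 156.2 and 174.7 CPM (3.37, SE 0.0801). Not every chemokine rose, since the homeostatic CXCL12 had 14.9, 18.1 and 14.3 CPM against 16.5, 18.6 and 17.3 CPM (0.15, adjusted p 0.212).

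Interleukins and colony-stimulating factors were more often higher than lower. Of 21 members 16 passed, 10 of which were higher and 2 lower, and 1 of the 10 passed the filter through the Sen(IR)+CTPI2 libraries alone. IL6 measured 2.33, 2.1 and 3.55 CPM in Prol and 58.5, 56.2 and 67.2 CPM in Sen(IR)+CTPI2 (4.49, SE 0.139, edgeR adjusted p 4.82e-14). IL1B, the secreted activator of NF-kB, went from 0.458, 0.210 and 0.434 CPM to 6.19, 5.91 and 8.42 CPM (4.19, SE 0.269), and the cell-associated IL1A went from 0.166, 0.126 and 0.145 CPM to 2.99, 1.59 and 2.74 CPM (4.01, SE 0.405). All 3 were separated between groups, though both IL1 genes had few counts in Prol. The members that fell were IL11, a profibrotic relative of IL6, from 115.1, 94.7 and 114.5 CPM to 6.54, 5.01 and 7.14 CPM (-4.12, SE 0.115), and CLCF1 (-0.90). LIF (2.07), a relative of IL6 named after its values were seen, rose.

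Promoters of 4 of these genes are printed to show where the NF-kB letters lie in them. IL6 was taken by rule, and CXCL1, CXCL8 and CXCL10, all on chromosome 4, were added after the values were seen. Capitals mark the NF-kB site (GGAATTTCC, GGGATTTTC or GGGACTTTC), the AP-1 site (TGAGTCA) and the CCAAT box, on either strand. On GRCh38.p14 the windows are chr7:22726950-22727249 (plus strand) for IL6, chr4:73869143-73869442 (plus) for CXCL1, chr4:73740319-73740618 (plus) for CXCL8 and chr4:76023448-76023747 (minus) for CXCL10.
IL6: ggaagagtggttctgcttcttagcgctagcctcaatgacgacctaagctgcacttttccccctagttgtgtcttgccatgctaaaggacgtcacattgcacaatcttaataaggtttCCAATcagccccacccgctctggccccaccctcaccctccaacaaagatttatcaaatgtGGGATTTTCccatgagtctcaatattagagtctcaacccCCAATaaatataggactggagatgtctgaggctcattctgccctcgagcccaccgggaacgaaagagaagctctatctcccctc
CXCL1: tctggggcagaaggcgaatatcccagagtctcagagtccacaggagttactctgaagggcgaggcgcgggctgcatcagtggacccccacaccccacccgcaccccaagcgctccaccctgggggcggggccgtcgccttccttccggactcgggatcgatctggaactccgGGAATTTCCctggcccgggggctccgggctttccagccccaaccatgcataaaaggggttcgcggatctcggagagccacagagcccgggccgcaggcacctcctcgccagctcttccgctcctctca
CXCL8: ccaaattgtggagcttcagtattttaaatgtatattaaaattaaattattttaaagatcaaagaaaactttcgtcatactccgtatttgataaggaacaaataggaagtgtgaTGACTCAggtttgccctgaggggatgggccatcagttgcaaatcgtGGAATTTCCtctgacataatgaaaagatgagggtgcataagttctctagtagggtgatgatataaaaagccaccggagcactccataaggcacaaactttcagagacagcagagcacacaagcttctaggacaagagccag
CXCL10: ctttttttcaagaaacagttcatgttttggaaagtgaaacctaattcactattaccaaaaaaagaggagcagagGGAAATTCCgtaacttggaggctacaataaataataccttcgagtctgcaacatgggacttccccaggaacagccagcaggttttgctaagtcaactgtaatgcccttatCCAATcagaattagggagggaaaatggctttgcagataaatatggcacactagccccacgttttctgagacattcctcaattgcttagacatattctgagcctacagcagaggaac

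The NF-kB letters begin at -73 in IL6, -78 in CXCL1, -91 in CXCL8 and, on the opposite strand, -176 in CXCL10. CXCL8 also holds an AP-1 site at -137. Over the 13 tested chemokine ligands with a window, 8 (61.5%) held the NF-kB letters, namely CXCL1, CXCL2, CXCL3, CXCL5, CXCL6, CXCL8, CXCL10 and CXCL11. Of these, CXCL8, CXCL6, CXCL1, CXCL5, CXCL3 and CXCL2 are neighbouring genes on chromosome 4. The forms searched include those of the printed promoters. Of the 16 tested ligands, 9 passed the filter through the Sen(IR)+CTPI2 libraries alone, so this share is no support in itself. The letters were also held by 6 of 20 promoters of NF-kB subunits and feedback genes, 3 of 34 of interferon-stimulated genes (8.82%), 1.00% of those of tested genes and 1.10% of all windows. Other secretory lists rarely held them, with 1 of 10 promoters of interleukins and colony-stimulating factors, which was that of IL6, and none of 15 in the TNF superfamily, 8 in complement or 10 in the prostaglandin list. CXCL12, which did not pass the test, lacked the letters, as did CXCL14, CCL7, CCL20 and CCL28. Only the exact letters given above were searched, so a window without them may hold an NF-kB site of another form. These are matches of letters, not binding sites, and no test was run on them.

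**Figure D4:**
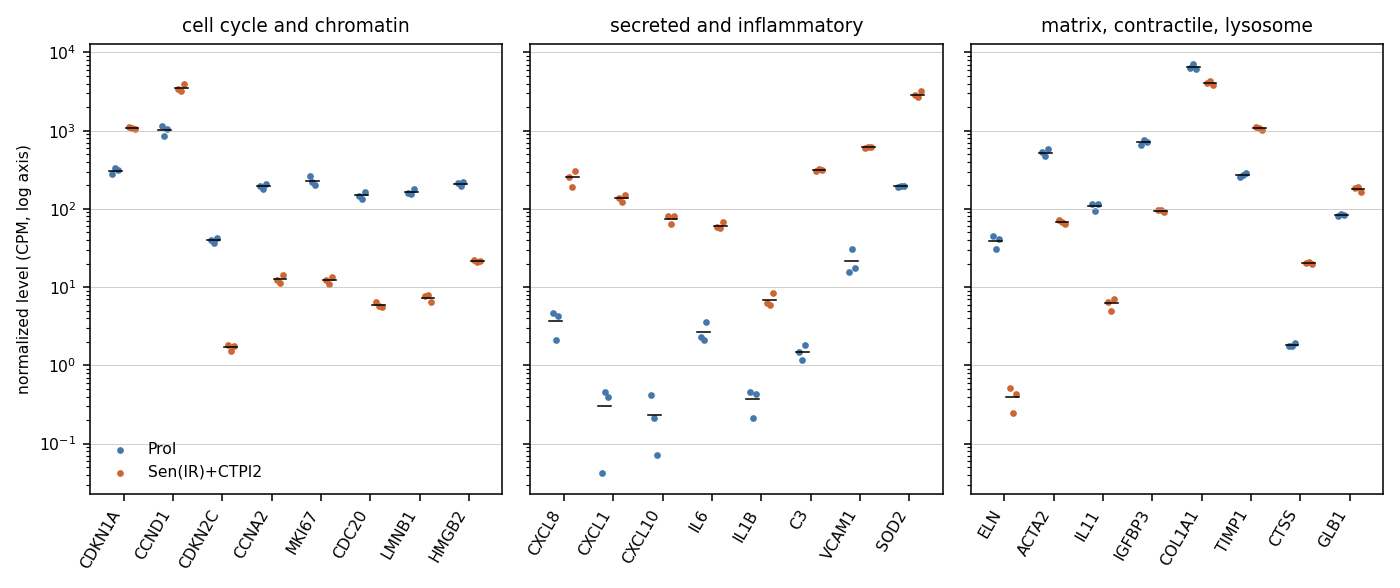
Levels of selected genes in each of the 6 libraries (points, CPM on a log axis) with the group mean as a bar, Prol beside Sen(IR)+CTPI2. IL6, for example, sits at 2.1 to 3.55 CPM in Prol and 56.2 to 67.2 CPM in Sen(IR)+CTPI2, CDKN1A at 281.6 to 329.4 and 1043 to 1101 CPM, and LMNB1 at 156.7 to 177.3 and 6.5 to 7.91 CPM, with no overlap between groups.

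Tumor necrosis factor family genes and NF-kB feedback genes were mostly higher. In the TNF superfamily 16 of 23 ligands and receptors that passed were higher, 3 of them having passed through the Sen(IR)+CTPI2 libraries alone, and 2 lower. TNFSF18 measured 1.79, 1.68 and 2.03 CPM in Prol and 125.0, 116.1 and 138.5 CPM in Sen(IR)+CTPI2 (6.10, SE 0.109). TNFRSF10C (3.17, a decoy receptor for TRAIL), TNFSF15 (2.89) and the B-cell factor TNFSF13B (2.69) also rose, whereas TNFRSF1B (-0.94) and TNFRSF12A (-0.84), receptors for TNF and TWEAK, fell. TNFSF14 had no count in Prol and was at least 10.3-fold higher.

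In the list of 23 NF-kB subunits and feedback genes 15 were higher and 1 lower (median 0.96). The list also holds VCAM1, SOD2 and ICAM1, which are neither subunits nor feedback genes. VCAM1, an adhesion molecule for leukocytes, rose from 15.7, 30.6 and 17.6 CPM to 609.2, 609.4 and 624.7 CPM (4.85, SE 0.168), and SOD2, the mitochondrial superoxide dismutase, from 187.8, 198.8 and 198.6 CPM to 2827, 2675 and 3185 CPM (3.89, SE 0.0774). ZC3H12A (2.47), which degrades cytokine mRNAs, and the nuclear IkB protein NFKBIZ (2.28) followed. NFKB1 (-0.21), which encodes an NF-kB subunit and is named after its values were seen, was not called. The subunit genes RELA and REL, named likewise, stayed within the fold limit too, while NFKB2 was higher. BCL3 was the member called lower, near the limit at -0.57, and was not called without Prol replicate 2 (-0.45), without Sen(IR)+CTPI2 replicate 2 (-0.50) or under upper-quartile scaling (-0.47).

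Proteases of the SASP were mixed. The collagenase MMP1 measured 193.6, 143.6 and 197.2 CPM in Prol and 223.2, 216.6 and 216.1 CPM in Sen(IR)+CTPI2 and did not pass the fold limit (0.30, SE 0.0918, edgeR adjusted p 0.00922). Stromelysin, MMP3, rose from 93.8, 68.6 and 99.9 CPM to 179.1, 172.0 and 168.0 CPM (0.98, SE 0.101). In both genes Prol replicate 2 was the lowest library. Of 16 metalloproteinases and inhibitors that passed, 7 were higher and 2 lower, with rises in MMP24 (2.18), MMP15 (1.76), MMP11 (1.57) and TIMP1 (1.98), a metalloproteinase inhibitor that went from 257.7, 273.1 and 291.6 CPM to 1121, 1095 and 1027 CPM. MMP16 (-0.54) and MMP10 (-0.58) lay just past the limit on the low side, and neither was called under upper-quartile scaling (-0.45 and -0.48).

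The plasminogen system was divided. PLAT, tissue plasminogen activator, rose from 364.6, 439.4 and 396.6 CPM to 1721, 1790 and 1527 CPM (2.07, SE 0.0791), and PLAUR, the urokinase receptor, fell from 112.6, 85.9 and 116.1 CPM to 51.4, 52.5 and 52.8 CPM (-1.01). SERPINI1 (4.02) and SERPINB2 (1.87) rose, and the collagen chaperone SERPINH1 fell (-1.48). In the list as a whole 5 of 15 were higher and 3 lower.

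Insulin-like growth factor genes showed opposite moves among the binding proteins. IGFBP2 and IGFBP4 were higher and IGFBP6 stayed within the fold limit, all named after their values were seen. IGFBP3 measured 662.1, 755.8 and 714.2 CPM in Prol and 95.6, 96.9 and 92.6 CPM in Sen(IR)+CTPI2 (-2.90, SE 0.0678), and IGFBP5 measured 11502, 12210 and 10309 CPM and 3755, 4084 and 4019 CPM (-1.52, SE 0.0721). IGF2 was also lower (-2.70), with 44% of its exonic bases overlapping other genes. On the other side PAPPA, the protease that releases IGF from binding proteins, rose from 33.9, 68.0 and 32.2 CPM to 170.2, 190.1 and 235.7 CPM (2.16, SE 0.201), as did its inhibitor STC1 (2.02). Altogether 7 of 12 were higher and 3 lower.

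Secreted growth factors had a median near 0 (-0.02), with 10 of 32 higher (31.2%) and 7 lower (21.9%), against 24.6% and 22.5% of all tested genes. FGF7, keratinocyte growth factor, rose from 160.4, 207.2 and 177.7 CPM to 615.9, 609.1 and 667.4 CPM (1.80, SE 0.0820), and ANGPTL4 rose as well (4.01). FGF1 (-3.39), PDGFB (-1.49), the activin subunit INHBA (-0.69) and the neurotrophin BDNF (-0.60) fell. Of the prostaglandin genes, PTGS2, the inducible cyclooxygenase, went from 3.29, 2.89 and 2.17 CPM to 37.9, 33.6 and 41.5 CPM (3.77, SE 0.134). PLA2G4A (1.48), which frees arachidonate, and the synthase PTGES (1.47) rose with it, and the receptor gene PTGER2 fell (-1.63), with 4 of 11 members higher and 3 lower.

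Complement and interferon-stimulated genes leaned high. Of 16 complement genes that passed, 10 were higher, 1 of them having passed through the Sen(IR)+CTPI2 libraries alone, and 1 was lower. The higher ones included CFB (2.97, 43% overlap), the protease C1S (1.40) and the chaperone CLU (1.43). C1S read 361.0, 472.2 and 406.5 CPM in Prol and 1120, 1153 and 993.2 CPM in Sen(IR)+CTPI2. The member called lower was C5 (-0.58), near the limit and not called under upper-quartile scaling (-0.49).

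Of 44 interferon-stimulated genes 36 (81.8%) were higher and 2 lower, with a median of 1.30, and 5 of the 36 passed through the Sen(IR)+CTPI2 libraries alone. OAS2 measured 0.208, 0.335 and 0.181 CPM in Prol and 20.9, 18.5 and 16.4 CPM in Sen(IR)+CTPI2 (6.26, SE 0.212). OAS1 was near the floor in Prol, with at most 0.0839 CPM, against 4.50, 3.46 and 3.38 CPM. The 2 members that fell were GBP1, a guanylate-binding protein, from 104.0, 97.5 and 102.7 CPM to 50.1, 49.8 and 51.3 CPM (-1.01, SE 0.0631), and IFITM2 (-0.59), the latter not called under upper-quartile scaling (-0.49).

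In class I antigen presentation 10 of 19 members were higher, 1 was lower and 8 were not called (median 0.58). HLA-E, a ligand of NK-cell receptors, went from 163.5, 163.5 and 174.0 CPM to 443.3, 451.2 and 458.8 CPM (1.43, SE 0.0593), and HLA-C (1.08) and the peptide loading genes TAP1 (1.11) and TAPBP (1.05) rose as well. HLA genes are polymorphic and alike in sequence, so their unique counts are uncertain. CALR, the lower member, was close to the limit (-0.52) and was not called under upper-quartile scaling (-0.43). In the list of NK-cell and checkpoint ligands 5 of 15 were higher and 3 lower. CD274, encoding PD-L1, measured 51.5, 35.1 and 48.1 CPM in Prol and 4.50, 3.87 and 3.25 CPM in Sen(IR)+CTPI2 (-3.53, SE 0.151, edgeR adjusted p 2.92e-12), and PDCD1LG2, encoding PD-L2, fell too (-1.30), whereas CD47 (0.64) and PVR (0.64), named after their values were seen, were higher. The NKG2D ligands ULBP1 (2.02) and RAET1G (1.34) were also higher.

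Extracellular matrix and contractile genes leaned low. None of 23 collagens was higher and 12 were lower (median -0.66). COL4A1, of basement membranes, went from 3200, 3322 and 2927 CPM to 1002, 1095 and 1019 CPM (-1.60, SE 0.0672), with falls in COL5A3 (-3.80), COL15A1 (-2.50) and COL16A1 (-1.25). The fibrillar chain COL1A2 was not called (0.31), at 4488, 5711 and 4632 CPM against 6090, 6484 and 5840 CPM, and neither was COL3A1 (-0.24, adjusted p 0.0554), whose libraries overlapped. In both, Prol replicate 2 was the highest Prol library.

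Modifying enzymes were evenly split, with 9 of 20 higher and 7 lower, LOXL4 (1.43) rising while PCOLCE (-2.83) and LOXL3 (-1.86) fell. Among 24 proteoglycan, hyaluronan and elastic matrix genes 10 were lower and 4 higher. The matricellular protein TNC fell from 429.6, 435.0 and 410.9 CPM to 60.9, 58.4 and 59.6 CPM (-2.83, SE 0.0628), with falls in the hyaluronan synthase HAS2 (-3.44) and in CEMIP (-1.64), which degrades hyaluronan. The hyaluronan receptor CD44 rose from 3934, 4070 and 4038 CPM to 6258, 6448 and 6390 CPM (0.67, SE 0.0587), and HYAL2 rose by 0.94.

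Of 17 contractile genes 14 were lower and none higher (median -1.18). ACTG2, smooth muscle gamma actin, went from 533.0, 473.0 and 600.5 CPM to 57.8, 54.7 and 51.0 CPM (-3.30, SE 0.0870), and CNN1, calponin, from 84.5, 68.2 and 90.2 CPM to 18, 15.9 and 15.6 CPM (-2.30). ACTA2 (-2.94, 36% of exonic bases overlapping other genes) and TAGLN (-1.99, 48%) were lower as well. ACTG2 and CNN1 also make up most of the smooth muscle marker sum, which was 542.0 to 691.7 CPM in Prol and 67.8 to 76.4 CPM in Sen(IR)+CTPI2, whereas the more specific markers MYH11 and DES stayed at or below 1.06 CPM in all 6 libraries. The part of a smooth muscle-like fraction of the cells in these falls was not tested.

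The citrate route itself changed little. SLC25A1, the target of CTPI2, measured 56.8, 62.0 and 60.9 CPM in Prol and 94.8, 99.0 and 96.0 CPM in Sen(IR)+CTPI2, 1.61 times the Prol mean (0.69, SE 0.0641, edgeR adjusted p 5.96e-08). ACLY, the next step, had 353.9, 347.5 and 336.5 CPM against 379.3, 391.7 and 354.7 CPM and was not called (0.12, adjusted p 0.0949). The mitochondrial pyruvate carrier subunits MPC1 (0.10, adjusted p 0.382) and MPC2 (0.50) were not called either, although MPC2 lies at the fold limit, with 37.4, 34.5 and 42.4 CPM against 53.6, 52.2 and 55.7 CPM, and passes it with DESeq2. Citrate synthase, CS, fell from 257.4, 240.1 and 267.3 CPM to 160.5, 152.2 and 150.0 CPM (-0.73, SE 0.0627), while ACO1, cytosolic aconitase, rose (0.66). In the list of 23 genes 4 were higher and 2 lower, both shares below those of all tested genes.

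Glycolysis and sterol genes moved in both directions. The hexokinase HK2 rose from 77.3, 64.2 and 71.1 CPM to 168.6, 180.7 and 178.5 CPM (1.31, SE 0.0719), and the monocarboxylate transporter gene SLC16A4 rose by 2.58. PFKP, the platelet-type phosphofructokinase (-1.43), enolase ENO1 (-0.88) and lactate dehydrogenase LDHA (-0.63) fell, so that 5 of 24 were higher and 4 lower. Of 25 sterol genes 6 were higher and 7 lower, with ACAT2 (-1.59), EBP (-1.12) and INSIG1 (-0.97) lower and TM7SF2 (1.92), SREBF2 (0.66) and MSMO1 (0.58) higher. A rise in the sterol regulator SREBF2 thus stood beside a fall in its target INSIG1. The sterol synthesis genes LSS, DHCR7 and SC5D, named after their values were seen, had positive fold changes, as did MSMO1. HMGCS1 and IDI1, named likewise, stayed within the fold limit.

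Respiratory chain genes were nearly level. Among 56 nuclear OXPHOS subunits none was higher and 3 were lower, CYC1 (-0.58), NDUFA9 (-0.52) and COX7A2 (-0.50), all near the fold limit and none of them called under upper-quartile scaling. Leaving out 1 library moved the count of lower subunits to between 1 (without Prol replicate 3) and 8 (without Sen(IR)+CTPI2 replicate 3), with 6 without Prol replicate 1 or 2 and 5 without Sen(IR)+CTPI2 replicate 1. Of 13 protein genes of the mitochondrial genome 1 was higher, MT-ND6 (0.57), with 566.6, 584.1 and 460.2 CPM against 849.6, 880.2 and 669.1 CPM, and it was not called without Prol replicate 3 or Sen(IR)+CTPI2 replicate 2 (0.48 for both). MT-CO1 had 7513, 7600 and 6625 CPM against 10057, 9368 and 7166 CPM, and its groups overlapped. Replicate 3 was the lowest library of its group for both mitochondrial genes, in Prol as in Sen(IR)+CTPI2.

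Lysosomal genes rose broadly, with 31 of 40 (77.5%) higher and 1 lower (median 0.87). GLB1, the enzyme behind senescence-associated beta-galactosidase, measured 80.3, 86.9 and 84.0 CPM in Prol and 182.8, 191.6 and 164.5 CPM in Sen(IR)+CTPI2, 2.14 times the Prol mean (1.10, SE 0.0689, edgeR adjusted p 3.84e-10). The cathepsin CTSS went from 1.75, 1.76 and 1.95 CPM to 20.3, 20.7 and 19.9 CPM (3.47, SE 0.126), with rises in FUCA1 (3.11), CTSF (2.11) and CTSK (1.87). GUSB, beta-glucuronidase, was the lower member, at 30.1, 30.9 and 34.9 CPM against 21.5, 21.2 and 18.7 CPM (-0.64).

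Stress pathways gave no common direction. In the endoplasmic reticulum list 4 of 22 genes were higher and 7 lower, with the sensor ERN1 (1.11) and DNAJB9 (1.15) up and SDF2L1 (-1.03) down. ATF4 targets and serine synthesis genes leaned low, with 11 of 21 lower and 3 higher. The amino acid transporter gene SLC7A5 went from 115.8, 135.4 and 116.1 CPM to 24.6, 27.7 and 22.5 CPM (-2.29, SE 0.0872), and PHGDH, the first enzyme of serine synthesis, from a mean of 85.8 CPM to 20.5 CPM (-2.06). ATF3, from the same list, rose from 13.2, 14.2 and 13.7 CPM to 40.1, 39.8 and 39.2 CPM (1.53, SE 0.0795).

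Of 24 NRF2 targets 7 were higher and 2 lower. The aldo-keto reductase AKR1C1 rose from 41.3, 53.7 and 47.2 CPM to 277.6, 287.1 and 288.9 CPM (2.59, SE 0.0823), with smaller rises of its paralogs AKR1C3 (1.89) and AKR1C2 (1.62), whose near-identical sequences make unique counts uncertain. FTH1, ferritin heavy chain, rose too (1.76), with 63% overlap, while TKT (-0.81) of the pentose phosphate pathway fell. Among 21 heat shock chaperones 3 were higher, HSPB6 (1.79), HSPB7 (1.36) and DNAJB4 (1.27), and 5 lower, led by the mitochondrial HSPD1 (-1.20). Of 4 metallothioneins that passed, MT1E fell (-1.13), MT1X rose (0.59, but 0.47 without Sen(IR)+CTPI2 replicate 2) and the pseudogene MT1L, which lies wholly within another gene model, was counted higher (1.88).

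Ribosomal genes leaned low by small amounts. None of 66 cytosolic ribosomal protein genes was higher, 22 were lower and 44 were not called. Their median was -0.43, and values ran from -0.95 to 0.01. Of the 66, 58 had separate ranges in Prol and Sen(IR)+CTPI2, to be read against 72.0% of all tested genes. RPSA went from 850.1, 877.7 and 973.7 CPM to 468.9, 448.5 and 481.9 CPM (-0.95, SE 0.0653), while RPL3 (-0.47) and RPL4 (-0.46) stayed just under the limit. Under upper-quartile scaling, which moved the median of all genes up by 0.0921, 14 were lower. The ribosome biogenesis list fell further, with 22 of 26 lower and none higher (median -0.88), led by FBL, fibrillarin, from 102.1, 95.3 and 117.4 CPM to 33.0, 30.7 and 29.5 CPM (-1.76, SE 0.0828), UTP20 (-1.57), DKC1 (-1.33) and RRS1 (-1.26).

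The smaller signalling lists were mixed. In the Notch list 6 of 13 were higher (46.2%) and 4 lower (30.8%), against 24.6% and 22.5% of all tested genes. Of the 6, 1 passed the filter through the Sen(IR)+CTPI2 libraries alone, and of the 4, 1 through the Prol libraries alone, so both had to differ. DLL4, an endothelial Notch ligand, fell from 64.5, 48.0 and 68.5 CPM to 8.36, 11.2 and 9.62 CPM (-2.63, SE 0.130), and the Notch targets HES4 (-2.20) and HES1 (-1.34) fell while DLL1 rose (1.36). The largest rise was in the ligand JAG2 (3.94), which had at most 5 counts in a Prol library, and the receptors NOTCH2 (0.82) and NOTCH3 (0.76) and the ligand JAG1 (0.65) rose too, all 4 named after their values were seen. Of 16 AP-1, ATF and C/EBP factors 2 were higher and 5 lower. AP-1 components FOSL1 (-1.86) and FOS (-1.61) fell. The AP-1 genes FOSB, FOSL2, JUN, JUNB and JUND, named after their values were seen, stayed within the fold limit of 0.5 and were not called. In the BCL2 family 4 of 13 were higher and 1 lower. The antiapoptotic BCL2 went from 16.8, 17.2 and 15.1 CPM to 6.24, 5.67 and 5.73 CPM (-1.47, SE 0.113), and the proapoptotic BCL2L11 (1.16), BBC3 (0.84) and BID (0.79) rose. The proapoptotic BAX (-0.48), BAK1 (-0.20), BOK (-0.32) and PMAIP1 (-0.04), named after their values were seen, were not called.

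Long noncoding RNAs on the list were more often higher, 10 of 18 (55.6%), than lower, 3 of 18 (16.7%), against 24.6% and 22.5% of all tested genes. Of the 10, 1 passed the filter through the Sen(IR)+CTPI2 libraries alone, and of the 3, 1 through the Prol libraries alone, so both had to differ. PURPL, a p53-responsive transcript, rose from 0.208, 0.335 and 0.543 CPM to 4.85, 4.44 and 3.76 CPM (3.54, SE 0.290), and LINC-PINT rose by 1.14. NEAT1, the scaffold of paraspeckles, had 229.7, 209.2 and 220.3 CPM in Prol and 872.1, 743.3 and 489.8 CPM in Sen(IR)+CTPI2 (1.68, SE 0.138), with replicate 3 well below replicates 1 and 2. SNHG1, a snoRNA host gene, fell (-1.87). CDKN2B-AS1, at no more than 1.01 CPM in any library, fell by 1.06 on the log2 scale with an adjusted p of 0.0438, and was not called without Prol replicate 3 or without Sen(IR)+CTPI2 replicate 2 or 3.

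The comparisons of Sen(IR) and of Sen(IR)+CTPI2 with Prol share the Prol libraries, so the senescent groups were compared directly, in a fit of all 12 libraries. The direct contrast of Sen(IR)+CTPI2 with Sen(IR) called 27 of 16251 genes (0.166%), 24 lower (0.148%) and 3 higher (0.0185%), and 18 of the 27 were on a list. Without Sen(IR) replicate 3 or Sen(IR)+CTPI2 replicate 2 the count of lower genes was 14 or 13. Of the 24 lower genes chemokine ligands held 7, interleukins 3, the TNF superfamily 2, interferon-stimulated genes 2 and complement 1. Against Prol, 21 of the 24 were called higher, while IL11, EME1 and HBD, the last named after its values were seen, were called lower. The arrest, chromatin, matrix, metabolism and ribosome lists held none of the 27 other than EME1, a recombination nuclease.

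The mean CXCL1 level was 294.8 CPM in Sen(IR) and 138.5 CPM in Sen(IR)+CTPI2, with 0.308 CPM in Prol, on the scale of the 12-library fit, and the direct log2 fold change of Sen(IR)+CTPI2 over Sen(IR) was -1.09 (SE 0.0758, edgeR adjusted p 2.81e-08). CXCL8 averaged 3.78, 539.0 and 255.2 CPM in Prol, Sen(IR) and Sen(IR)+CTPI2 (-1.08, SE 0.119), IL6 in the same order 2.73, 113.4 and 61.4 CPM (-0.89, SE 0.0911) and C3 1.53, 483.7 and 316.4 CPM (-0.61, SE 0.0519). These cytokines were thus between the Prol and the Sen(IR) level. AKR1C1 lay beyond both, at 48.6, 201.3 and 288.1 CPM, and was one of the 3 genes higher than in Sen(IR) (0.52, SE 0.0654).

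For the arrest markers the direct contrast found no call. CDKN1A averaged 1055 CPM in Sen(IR) and 1089 CPM in Sen(IR)+CTPI2 (0.04, SE 0.0522, adjusted p 0.930), and CCNA2 averaged 12.4 and 12.8 CPM (0.04, SE 0.102, adjusted p 0.972). LMNB1 (-0.15, SE 0.0986), MKI67 (0.18, SE 0.131), GLB1 (-0.07, SE 0.0547) and SLC25A1 (0.04, SE 0.0575) were not called either. A p that misses the threshold does not show equal levels, and a difference of 1 SE would not have been called. A call also needed a log2 fold change beyond 0.5. Among the 27 calls the highest edgeR adjusted p, 0.0495, belonged to TNFSF15, at -0.54 with an SE of 0.122.

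Sen(IR)+CTPI2 was set directly against Sen(IR)+UK5099 too, senescent cells given an inhibitor of the mitochondrial pyruvate carrier. Here 3236 of 16251 genes (19.9%) were called, 1904 higher in Sen(IR)+CTPI2 (11.7%) and 1332 lower (8.20%). All 33 kinetochore, spindle and mitosis genes were higher with CTPI2 (median log2 fold change 2.07), and so were 15 of 17 chemokine ligands (5.02) and 36 of 44 interferon-stimulated genes (1.63). Chemokine and interferon genes with few counts in Sen(IR)+UK5099 could pass the filter through the other groups alone, so their counts are no support in themselves. CXCL1 averaged 138.5 CPM with CTPI2 and 0.234 CPM with UK5099 (9.18, SE 0.164), IL6 61.4 and 1.17 CPM (5.72, SE 0.152), and C3 316.4 and 0.660 CPM (8.89, SE 0.0970). MKI67, low in both, averaged 12.5 and 0.950 CPM (3.72, SE 0.200), whereas CDKN1A averaged 1089 and 1098 CPM (-0.01, SE 0.0522, adjusted p 0.872). NRF2 targets leaned the other way, with 1 of 24 higher and 10 lower with CTPI2.

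**Figure D5:**
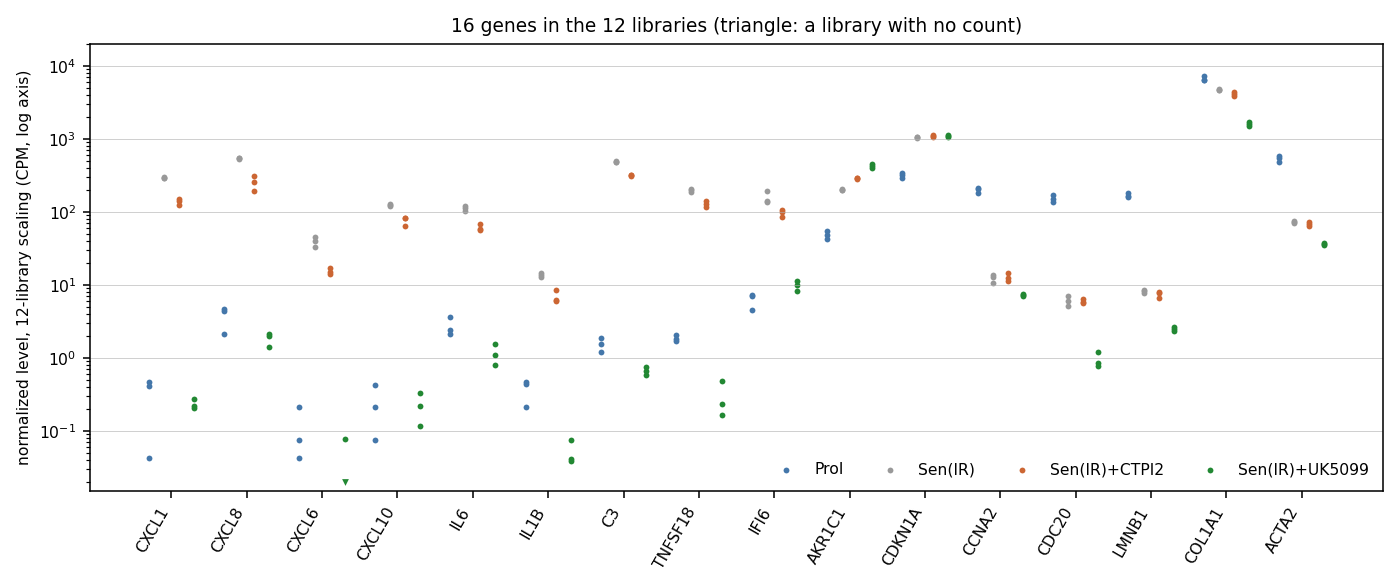
Levels of 16 genes in the 12 libraries (points, CPM from the 12-library fit on a log axis) in Prol, Sen(IR), Sen(IR)+CTPI2 and Sen(IR)+UK5099. IL6 averages 2.73, 113.4, 61.4 and 1.17 CPM in that order and CDKN1A 314.9, 1055, 1089 and 1098 CPM, so IL6 differs widely among the irradiated groups while the CDKN1A averages lie close together.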

How the data were processed

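RNA sequencing counts of 12 MRC5 libraries were used, in 4 groups of 3 by their labels, 6 of which entered the main comparison. The authors deposited raw counts per gene. Per the methods and the submitters' processing notes, paired reads were trimmed with Trimmomatic 0.36 and aligned to GRCh38 with STAR 2.5.2b, and uniquely mapped exon reads were counted with featureCounts of Subread 1.5.2. The RNA selection and the use of strand are not given in the sources used here. The table holds 57500 genes, of which 56410 matched the annotation and 26685 had no count in the 6 libraries. It held 0 columns of other samples.

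Genes were filtered with filterByExpr, scaled by trimmed mean of M-values (TMM) and tested with the quasi-likelihood test of edgeR 4.0.16 in R 4.3.3, and called where the Benjamini-Hochberg adjusted p was below 0.05 and the log2 fold change lay beyond 0.5 in either direction, as the authors' fold limit. CPM values are TMM-scaled. Sen(IR) and Sen(IR)+UK5099 were compared with Sen(IR)+CTPI2 in a fit of all 12 libraries, whose CPM scale differs slightly. The scripts were tested on simulated counts. Alternatives were other scalings, no filter, other thresholds, DESeq2 1.42.0, a replicate block and leaving out each library. Replicates of a group correlated at 0.9913 to 0.9937 (Pearson, across genes). The 15284 genes tested held 99.9% of the counts, and the median SE was 0.426 for genes under 0 log2 CPM and 0.0706 over 5, so low genes are measured less firmly. Floors cover counting error only.

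Genes named are the 10 largest changes in each direction (called, mean over 1 log2 CPM, no overlap, more than 3 counts in a library of each group), 24 fixed genes and, in each of 45 lists, up to 4 called members with the largest change and up to 2 of the minority direction. Others are named as chosen after their values were seen. A few genes that this rule names are not reported here. The members and lists were chosen with earlier results of these data known. Promoters, 250 bases before to 50 after a start, are from RefSeq (GRCh38.p14). No column of the authors' own comparisons was used.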

Additional observations from a re-analysis of the deposited data

How the results depend on the processing

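The count of genes called between Sen(IR)+CTPI2 and Prol, 3755 higher and 3444 lower, was 3654 and 3310 with DESeq2, 3804 and 3394 with the scaling of DESeq2 (RLE) in edgeR, 4269 and 2932 with upper-quartile scaling and 4178 and 3800 with no filter on low counts. With a fold limit of 1 it was 2095 and 1579, and with no fold limit 5221 and 5215. Leaving out 1 library gave 3558 to 3795 higher and 3323 to 3516 lower. Of the 7199 calls, 6927 were made the same way by DESeq2, 6687 under upper-quartile scaling, 7097 in the 12-library fit, 6108 without each library in turn, and 0 the other way by DESeq2, under upper-quartile scaling or in the 12-library fit. Upper-quartile scaling raised the median of all genes to 0.0921 and the share of calls that were higher from 52.2% to 59.3% (52.8% with RLE), and it turned the sign of 5 list medians near 0, those of plasminogen activators and serpins, growth factors, NK-cell and checkpoint ligands, heat shock chaperones and the BCL2 family.

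Against Sen(IR), the 3 higher and 24 lower genes became 1 and 10 with a fold limit of 1, 14 and 65 with no limit, 8 and 38 with no filter, 123 and 173 at an unadjusted p under 0.05 in edgeR and 93 and 137 in DESeq2. Leaving out 1 library gave 2 to 3 higher and 13 to 18 lower, with 14 lower without Sen(IR) replicate 3 and 13 without Sen(IR)+CTPI2 replicate 2. Against Sen(IR)+UK5099, 1904 higher and 1332 lower became 998 and 419 with a fold limit of 1 and 3798 and 3429 with none, and leaving out 1 library gave 1783 to 1897 and 1160 to 1274.

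Replicate numbers are shared by the groups, but same-numbered libraries did not deviate together (correlations of 0.00133, 0.0414 and -0.0565 across genes), so the numbers were not taken as pairs. With a replicate block, 3705 genes were higher and 3413 lower than in Prol, 2 and 23 against Sen(IR) and 1885 and 1319 against Sen(IR)+UK5099.

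Of 241 genes named with a fold change, 1, PMAIP1, which was not called, changed sign under any of the 16 alternatives, from -0.04 to 0.06 under upper-quartile scaling and between -0.14 and 0.02 leaving out 1 library. Under the 14 that kept the fold limit, 14 lost their call and 4 gained one, nearly all with a fold change close to 0.5 on the log2 scale or few counts. The cause of these changes was not tested. Genes under 0 log2 CPM had a median SE of 0.426, so differences in lowly counted genes were detectable only where large.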

Other observations

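The genes below lie outside the lists and were chosen after their values were seen. FST, encoding the activin antagonist follistatin, measured 1541, 1302 and 1568 CPM in Prol and 76.2, 74.6 and 75.4 CPM in Sen(IR)+CTPI2, a log2 fold change of -4.29 (SE 0.0809, edgeR adjusted p 5.59e-16). DIRAS2, a Ras-related GTPase gene, had no count in Prol and 5.54, 5.91 and 5.90 CPM in Sen(IR)+CTPI2, at least 46.0-fold above the floor of 3 counts in a library. NAP1L2, a histone chaperone gene, likewise had no count in Prol and stood at 1.26, 2.16 and 1.75 CPM, at least 13.7-fold above that floor.

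Clustered protocadherins, adhesion molecules encoded in neighbouring gene clusters on chromosome 5, were higher as a family, with 29 of 39 tested members called higher and none lower (median log2 fold change 1.11), against 24.6% of all tested genes. All 4 tested alpha genes, 11 of 14 beta genes and 14 of 21 gamma genes were called higher. Up to 64.4% of their exonic bases overlap other gene models, so counts of single members are uncertain. Runs of neighbours were sought among tested protein-coding genes only, passing over tested genes of other types between them. The longest run in which all were called higher held 13 protocadherins, from PCDHA3 to PCDHB10, at chr5:140801028-141195647, and the next held 10 genes of the histone cluster, from H2AC6 to H2BC9, at chr6:26124145-26252075 (GRCh38).

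By annotated type, long noncoding RNA genes leaned high, with 450 of 1504 higher (29.9%) and 204 lower (13.6%). Processed pseudogenes leaned low, with 23 of 243 higher (9.47%) and 61 lower (25.1%). Protein-coding genes were balanced, with 24.3% higher and 23.8% lower of 12887.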
